A study of Mus musculus with 8 samples.

Results

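Neutrophil granule genes were followed in whole pancreas through the 7 genes S100a8, S100a9, Camp, Ngp, Mpo, Elane and Prtn3. The genes were chosen with earlier results of these data known, so member counts set beside shares of all probe sets are descriptive. Every probe set that the platform annotation assigned to 1 of these symbols was then taken, whatever its values. This gave 8 of the 12422 probe sets tested, or 7 of 8251 genes named by a single-symbol probe set. Mpo had 2 probe sets and each other gene had 1, and 0 member probe sets carried several symbols. No filter on low values was applied, and in the alternative that had one the Mpo probe sets were left out.

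The 8 Affymetrix arrays held 2 arrays of each of 4 groups of mice aged 3 weeks. BDC2.5/NOD.scid mice carried the BDC2.5 transgene, which encodes the rearranged receptor of 1 islet-reactive CD4 clone, together with the scid mutation of Prkdc. NOD.scid mice carried the scid mutation alone, which leaves them without mature T and B lymphocytes while neutrophils, monocytes and erythroid cells still form. BDC2.5/NOD mice carried the transgene on the NOD background, and NOD mice carried neither. NOD is the inbred strain, prone to autoimmune diabetes, that all 4 groups share. The sources used here give neither the sex of the animals nor the promoter of the transgene. Per the labels, a pool held 2 RNA isolations of 6 animals each, so no value belongs to 1 animal. It is not stated if the arrays of each group hold separate pools, so the p-values measure only the spread between arrays, which may be technical.

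Neutrophils are made in the marrow and, early in life, also in liver and spleen, and they load their granules in a fixed order. Mpo, Elane and Prtn3 are transcribed in promyelocytes and their products fill the azurophil granules. Camp and Ngp are transcribed later, in myelocytes, for the specific granules. S100a8 and S100a9 encode partner proteins that make up much of the neutrophil cytosol, and their mRNA persists into mature cells, as does some expression in monocytes.

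The upstream sequences of the 4 genes that changed most between groups are shown because these genes moved together, with those of Elane and Prtn3, neighbours on chromosome 10, for comparison. Each is the 250 bases before the gene start, 5′ to 3′ on the gene's own strand, from the RefSeq promoter table of GRCm38.p6. S100a8 lies at chr3:90668821-90669070, plus strand. For S100a9 the window is chr3:90695722-90695971, minus strand. Camp is read from chr9:109849457-109849706, minus strand. The Ngp window covers chr9:110419558-110419807, plus strand. Elane is taken from chr10:79886062-79886311, plus strand. Prtn3 comes from chr10:79879417-79879666, plus strand. Capitals mark matches to the C/EBP motif TTGCNNAA, the PU.1 core GAGGAA and the RUNX motif TGTGGT on either strand, and to TATAAA on the gene's strand.
S100a8: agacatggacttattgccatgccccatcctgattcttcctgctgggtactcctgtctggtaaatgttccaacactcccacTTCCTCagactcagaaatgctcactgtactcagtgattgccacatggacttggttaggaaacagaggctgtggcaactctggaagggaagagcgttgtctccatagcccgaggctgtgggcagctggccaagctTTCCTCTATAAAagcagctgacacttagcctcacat
S100a9: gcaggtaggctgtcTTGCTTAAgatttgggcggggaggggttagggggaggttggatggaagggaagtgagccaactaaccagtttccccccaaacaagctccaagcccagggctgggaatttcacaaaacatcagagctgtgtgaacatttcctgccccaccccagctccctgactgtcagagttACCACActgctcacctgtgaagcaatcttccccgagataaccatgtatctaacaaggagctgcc
Camp: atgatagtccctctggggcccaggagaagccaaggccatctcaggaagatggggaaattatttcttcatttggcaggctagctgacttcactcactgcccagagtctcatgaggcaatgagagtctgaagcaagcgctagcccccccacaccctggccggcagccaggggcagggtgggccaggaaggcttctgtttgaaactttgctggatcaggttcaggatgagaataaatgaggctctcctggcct
Ngp: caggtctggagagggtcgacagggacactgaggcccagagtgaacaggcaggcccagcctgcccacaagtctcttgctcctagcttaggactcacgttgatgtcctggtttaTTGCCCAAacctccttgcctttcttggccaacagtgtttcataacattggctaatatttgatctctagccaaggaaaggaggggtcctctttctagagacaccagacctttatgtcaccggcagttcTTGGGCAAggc
Elane: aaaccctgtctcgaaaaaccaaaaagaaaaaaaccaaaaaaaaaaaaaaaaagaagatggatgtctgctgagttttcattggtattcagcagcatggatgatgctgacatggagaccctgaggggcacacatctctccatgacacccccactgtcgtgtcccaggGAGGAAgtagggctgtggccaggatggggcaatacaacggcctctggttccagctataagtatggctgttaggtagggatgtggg
Prtn3: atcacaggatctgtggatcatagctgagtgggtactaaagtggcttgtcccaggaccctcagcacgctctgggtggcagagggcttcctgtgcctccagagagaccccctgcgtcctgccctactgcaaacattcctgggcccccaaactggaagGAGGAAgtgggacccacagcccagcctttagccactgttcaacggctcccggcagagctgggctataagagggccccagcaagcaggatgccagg

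S100a8 and S100a9 are adjacent on chromosome 3 with 0 protein-coding genes starting between them, and Prtn3 and Elane are likewise adjacent. Camp and Ngp lie on chromosome 9 with 8 protein-coding genes between them. The C/EBP motif, bound by factors that drive granulocyte genes, was found in 2 of the 7 member promoters, S100a9 at -236 to -229 and Ngp at -138 to -131 and -11 to -4. It was present in 9.6% of all 32851 promoters of the same length. A match to the PU.1 core was present in S100a8, Prtn3, Elane and Mpo, 4 of 7, against 23.3% of all promoters. In S100a8 the core at -36 to -31, read on the other strand, abuts the TATAAA at -30 to -25, so that 1 run of capitals holds both. TATAAA was in 1 member of 7 and in 7.6% of all promoters, and the RUNX motif was in 1 of 7 (S100a9, -64 to -59) and in 14% of all. Camp held none of the 4 motifs in this window. These matches describe the letters only.

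**Figure D1:**
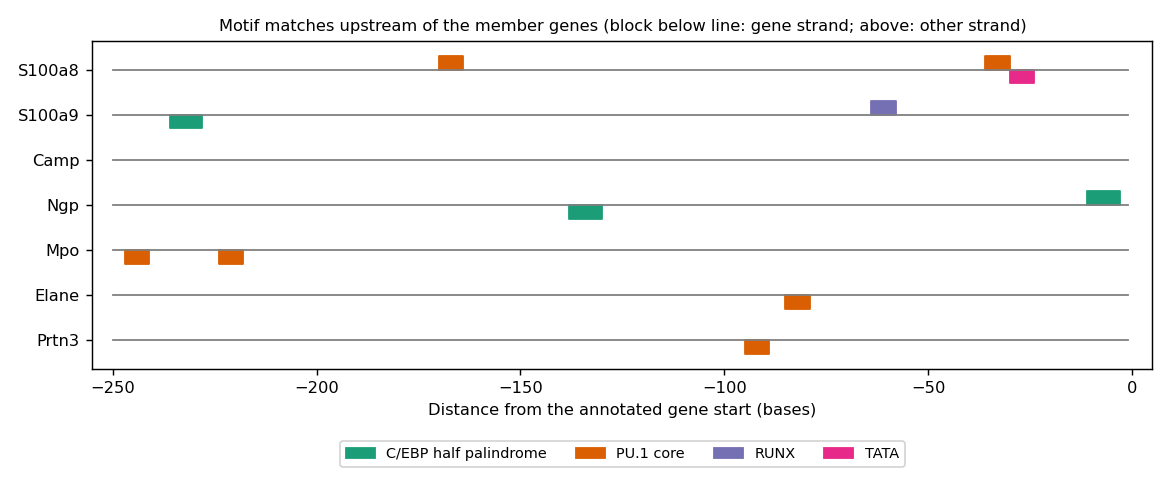
Positions of motif matches in the 250 bases upstream of each member gene, in bases from the annotated gene start; blocks below a line are on the gene's strand and blocks above it on the other strand. S100a8 holds a PU.1 core next to a TATA match, Ngp holds 2 C/EBP matches, and Camp holds none.

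The tissue label was checked first. The acinar enzymes Cel, Cela1, Cela2a and Ctrb1 read 12.9 to 13.8 on every array on the deposited log2 scale, against a median of 4.27 over all probe sets, and Rbpjl, an acinar transcription factor, read 3.79 to 4.001. Array medians lay between 4.24 and 4.30. The beta-actin control, read from its middle probe set alone, was at 9.26 to 9.55 on 3 arrays (BDC2.5/NOD.scid replicate 2, NOD.scid replicate 1 and NOD replicate 1). It was at 6.95 to 7.74 on the other 5, and the cause of this split was not tested. The BioB hybridization control was 7.02 and 7.06 on the BDC2.5/NOD arrays and 5.89 to 6.45 elsewhere. Among defining neutrophil surface genes, Ly6g read 3.58 to 3.90 and Cxcr2 2.57 to 2.86 over all arrays, both under the median of all probe sets. Csf3r, the receptor for granulocyte colony-stimulating factor, read 7.68 to 7.97 by the brightest of its 3 probe sets. Because the tissue was measured in bulk, fewer cells of a type and less RNA per cell cannot be told apart in any result given here.

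S100a8, the smaller partner of the S100a8/S100a9 heterodimer calprotectin, had log2 values of 4.80 and 4.07 in BDC2.5/NOD.scid, 6.70 and 6.94 in NOD.scid, then 3.64 and 3.35 in BDC2.5/NOD and 4.55 and 4.90 in NOD. Both NOD.scid arrays stood 1.81 or more above every other array, and both BDC2.5/NOD arrays were the lowest. Its span over the 8 arrays, 3.60 on the log2 scale, was larger than that of 99.9% of probe sets. S100a9, which stabilises S100a8 and binds calcium and zinc with it, had 4.24 and 3.99 in BDC2.5/NOD.scid, 6.08 and 6.20 in NOD.scid, then 3.93 and 3.92 in BDC2.5/NOD and 4.29 and 4.37 in NOD. NOD.scid again stood alone, 1.71 above the nearest other array, while the other 3 groups lay within a narrow band.

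Camp encodes the cathelicidin precursor, whose cleaved peptide kills bacteria. It had 5.50 and 5.49 in BDC2.5/NOD.scid, 6.80 and 6.76 in NOD.scid, then 5.49 and 5.33 in BDC2.5/NOD and 5.51 and 5.54 in NOD. The 6 arrays outside NOD.scid spanned little, and NOD.scid lay 1.22 above the highest of them. Ngp, neutrophilic granule protein, is related to the cathelicidins and is stored in the same granules. Its values were 5.08 and 4.72 in BDC2.5/NOD.scid, 5.99 and 5.69 in NOD.scid, then 4.63 and 4.49 in BDC2.5/NOD and 4.98 and 4.95 in NOD. The gap between NOD.scid and the rest was 0.61 for Ngp.

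Mpo encodes myeloperoxidase, which makes hypochlorous acid in the phagosome. Its probe set 100414_s_at had 4.22 and 4.21 in BDC2.5/NOD.scid, 4.49 and 4.40 in NOD.scid, then 4.25 and 4.24 in BDC2.5/NOD and 3.90 and 4.01 in NOD. The other Mpo probe set, 100415_at, had 3.49 and 3.56 in BDC2.5/NOD.scid, 3.40 and 3.69 in NOD.scid, then 3.58 and 3.64 in BDC2.5/NOD and 3.42 and 3.49 in NOD, with NOD.scid overlapping the rest. The pair of Mpo probe sets disagreed in this, and their values correlated at Pearson r = 0.31 over the 8 arrays.

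Elane, neutrophil elastase, had 5.12 and 4.85 in BDC2.5/NOD.scid, 5.21 and 5.20 in NOD.scid, then 5.13 and 5.06 in BDC2.5/NOD and 4.78 and 5.03 in NOD. Prtn3, proteinase 3, a serine protease close to elastase, had 5.11 and 5.004 in BDC2.5/NOD.scid, 5.22 and 5.28 in NOD.scid, then 5.20 and 5.18 in BDC2.5/NOD and 4.99 and 5.14 in NOD. For both proteinases NOD.scid was the highest group, but by only 0.073 (Elane) and 0.013 (Prtn3) over the nearest other array. Both NOD.scid arrays lay above all 6 others in 7 of the 8 member probe sets, where 6.45% of all probe sets did so.

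**Figure D2:**
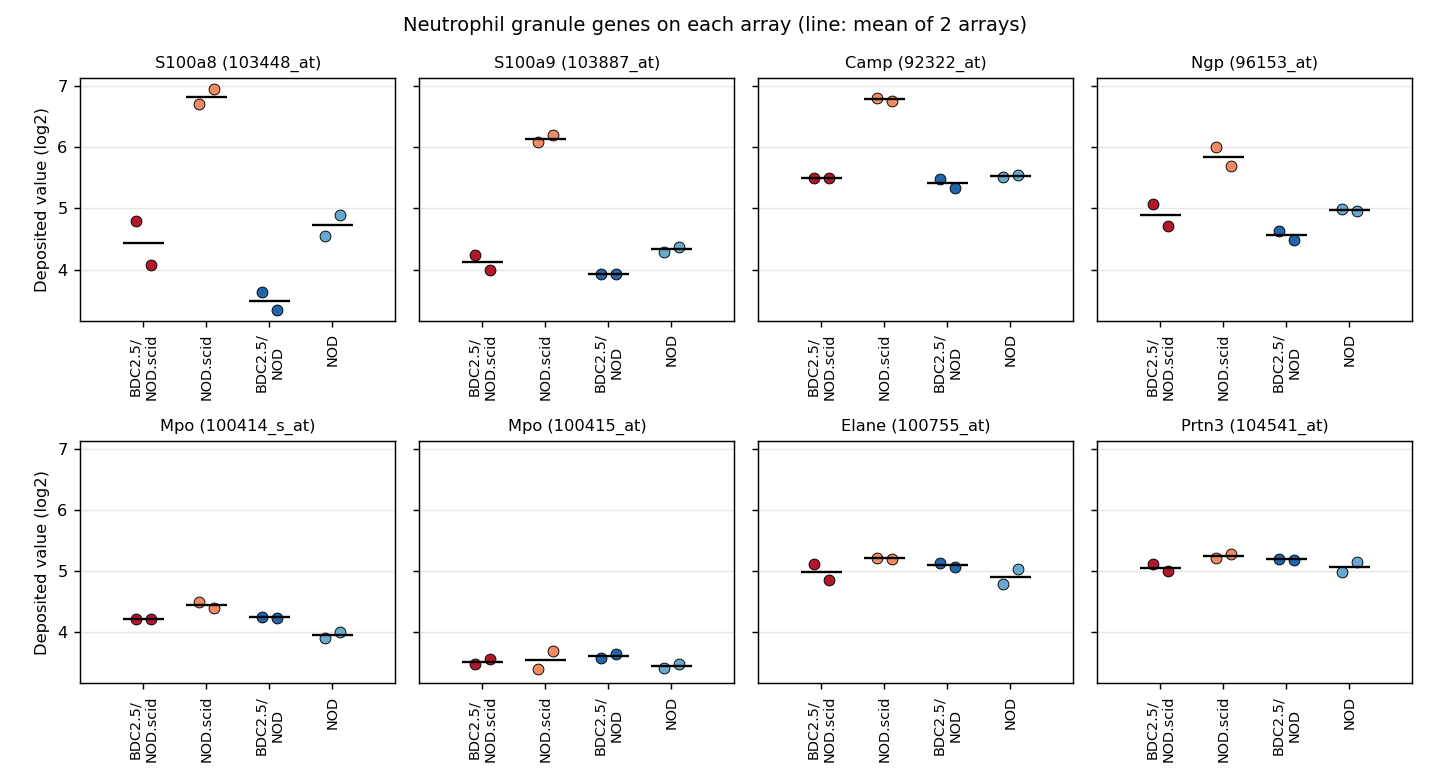
Deposited log2 value of each member probe set on each of the 8 arrays; points are arrays and the black line is the mean of the 2 arrays of a group. S100a8, S100a9, Camp and Ngp stand highest in NOD.scid by 0.61 to 1.81. Mpo 100414_s_at, Elane and Prtn3 stand highest there by 0.148, 0.073 and 0.013, and in Mpo 100415_at NOD.scid overlaps the rest. Mpo 100414_s_at was 0.49 higher in NOD.scid than in NOD (limma adjusted p = 0.0207).

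The effect of scid without the transgene was read from NOD.scid against NOD. In this comparison 5 of the 8 member probe sets were higher at an adjusted p under 0.05 and 0 were lower. Over all probe sets 0.741% were higher, 1.61% lower and 2.35% either way. The lower calls over all probe sets numbered 200, and 40 without NOD replicate 2. S100a8 averaged 6.82 ± 0.17 in NOD.scid and 4.72 ± 0.24 in NOD (SD, n = 2 arrays each), a difference of 2.10 on the log2 scale (SE 0.20, limma adjusted p = 0.000106), or 4.28-fold. Only 2 of the 12422 probe sets had a larger difference upward. S100a9 averaged 6.14 ± 0.081 in NOD.scid and 4.33 ± 0.052 in NOD, 3.50-fold higher (log2 difference 1.81, adjusted p = 1.25e-06).

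The specific granule members, Camp and Ngp, rose as well. Camp was 2.38-fold higher in NOD.scid (log2 difference 1.25, SE 0.091, adjusted p = 8.01e-06) and Ngp 1.83-fold higher (0.87, SE 0.13, adjusted p = 0.00478). Without NOD replicate 2, Ngp was at 0.86 with an adjusted p of 0.0542 and the member count was 3. The azurophil genes gave 1 call among their 4 probe sets. Mpo 100414_s_at was higher by 0.49 (adjusted p = 0.0207), a call that was lost in 6 of the 8 fits that left out 1 array, those without either array of NOD.scid, BDC2.5/NOD or NOD, at differences of 0.44 to 0.54 and adjusted p up to 0.129. Over all alternatives it passed in 9 of 18. Mpo 100415_at (0.09), Elane (0.30, 95% interval 0.046 to 0.551) and Prtn3 (0.18, interval -0.031 to 0.391) did not pass. The median difference was 0.68 over the 8 members and 0.028 over all probe sets.

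The transgene within NOD.scid was read from BDC2.5/NOD.scid against NOD.scid, which shares the NOD.scid arrays with the comparison above, so the differences of opposite sign are not independent. Here 4 of the 8 member probe sets were lower and 0 were higher, where 4.03% of all probe sets were lower and 6.40% changed either way. Those lower calls numbered 500, and 211 without BDC2.5/NOD.scid replicate 2. S100a8 averaged 4.43 ± 0.51 in BDC2.5/NOD.scid and 6.82 ± 0.17 in NOD.scid (SD, n = 2 each). It fell by 2.39 on the log2 scale, 5.23-fold (adjusted p = 9.97e-06), and only 1 probe set had a difference further below 0. S100a9 was 4.12 ± 0.18 in BDC2.5/NOD.scid and 6.14 ± 0.081 in NOD.scid, 4.06-fold lower with the transgene (log2 difference -2.02, adjusted p = 1.40e-07).

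Camp fell by 1.28 on the log2 scale (adjusted p = 2.23e-06) and Ngp by 0.94 (adjusted p = 0.000975) in BDC2.5/NOD.scid relative to NOD.scid. Each of the 4 passed in all 19 alternative fits, which included leaving out each array. The differences of Mpo 100414_s_at (-0.23, adjusted p = 0.237), Mpo 100415_at (-0.03), Elane (-0.22, adjusted p = 0.374) and Prtn3 (-0.19, adjusted p = 0.350) did not pass. For Elane the 95% interval ran from -0.472 to 0.033, so a fall as large as that of Camp lies outside it. The members' median difference was -0.58 beside -0.0045 over all probe sets.

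Within NOD, BDC2.5/NOD was compared with NOD. Here 2 of the 8 member probe sets were lower and 0 higher, where 4.06% of all probe sets were lower and 7.97% changed. S100a8 averaged 3.49 ± 0.21 in BDC2.5/NOD and 4.72 ± 0.24 in NOD, and fell by 1.23 (2.35-fold, adjusted p = 0.00276). Without BDC2.5/NOD replicate 2 this was -1.09 with an adjusted p of 0.0526. S100a9 averaged 3.92 ± 0.0042 in BDC2.5/NOD and 4.33 ± 0.052 in NOD, and fell by 0.41 (adjusted p = 0.0389). That call was lost without any 1 of the 4 arrays compared (-0.45 to -0.37, adjusted p up to 0.208). Ngp differed by -0.41 (adjusted p = 0.0856) and Camp by -0.12 (adjusted p = 0.481), neither passing. Ngp did pass with the compared groups fitted alone (-0.41, adjusted p = 0.0203), with array weights (-0.41, adjusted p = 0.0386) and without the 3 high-actin arrays (-0.39, adjusted p = 0.00421), a fit with 1 residual degree of freedom. Mpo 100414_s_at lay 0.29 higher (adjusted p = 0.0876), Elane 0.19 higher and Prtn3 0.13 higher, also without passing. With array weights Mpo 100414_s_at passed (adjusted p = 0.0491).

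Whether the transgene's difference depended on scid was tested by the interaction, the difference in NOD.scid minus that in NOD. It passed for S100a9 at -1.61 (SE 0.15, adjusted p = 5.84e-05), for Camp at -1.16 (adjusted p = 0.000216) and for S100a8 at -1.16 (adjusted p = 0.0388), 3 of 8 members where 4.72% of all probe sets passed. S100a9 and Camp passed in all 17 alternative fits. Outside NOD.scid, S100a9 read 3.92 to 4.37, near the median of 4.27 over all probe sets, and Camp read 5.33 to 5.54. Whether a floor of the signal limited the fall in NOD was not tested. S100a8 passed in 9 of 17. It missed the threshold when replicate 2 of BDC2.5/NOD.scid, replicate 1 of NOD, or any array of NOD.scid or BDC2.5/NOD was left out, at -1.30 to -0.79 and adjusted p up to 0.201. Ngp (-0.53, adjusted p = 0.159), Mpo 100414_s_at (-0.52, adjusted p = 0.0515), Elane (-0.41) and Prtn3 (-0.32) did not pass. Mpo 100414_s_at passed with the actin control as a term (-0.51, adjusted p = 0.0350) and with no variance trend (-0.52, adjusted p = 0.0459), which made the count 4 in those fits.

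**Figure D3:**
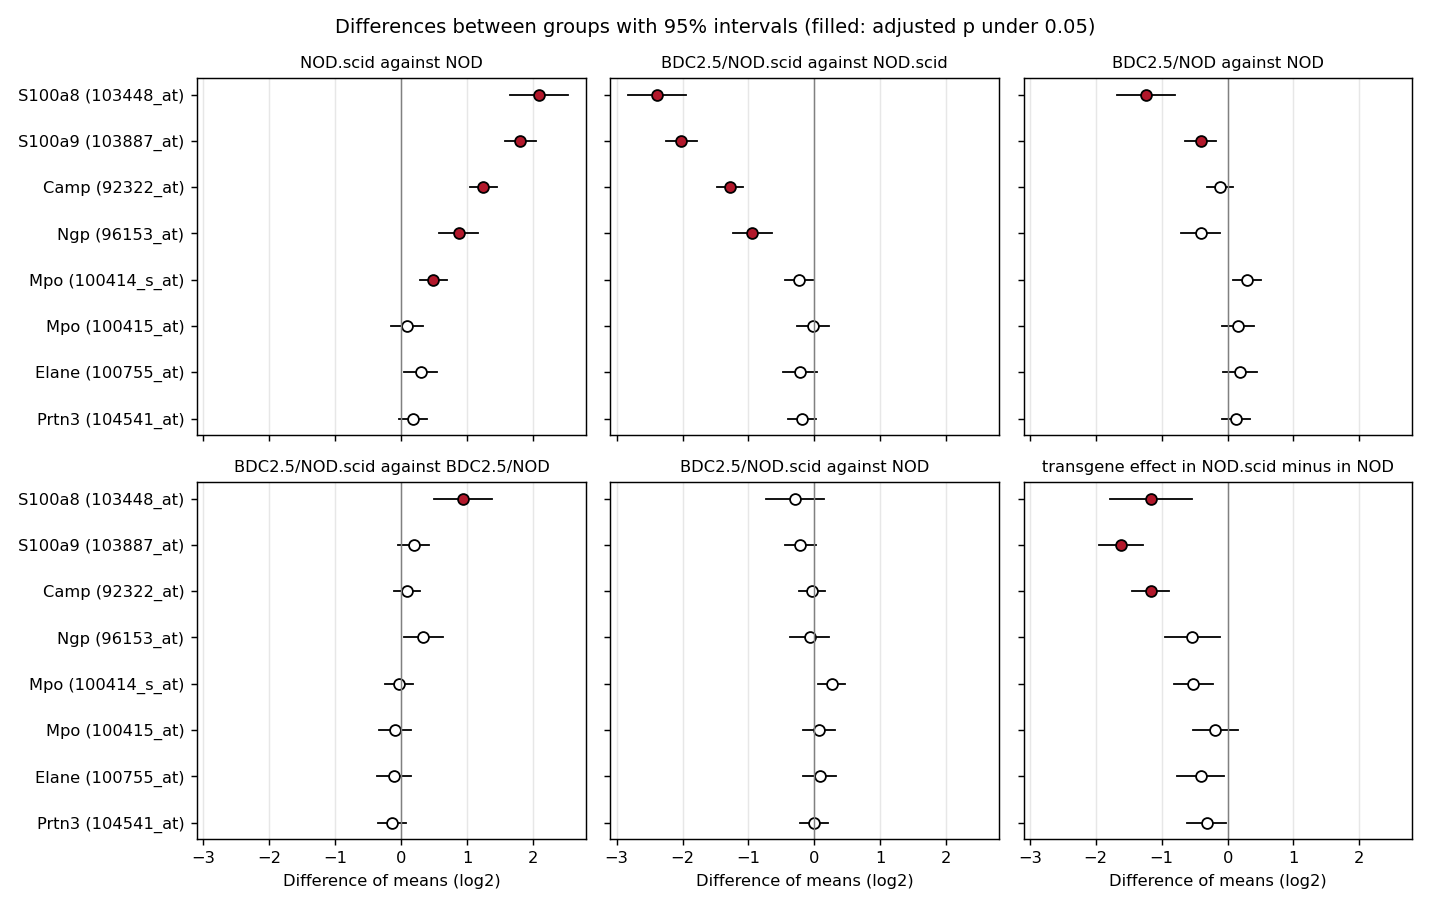
Log2 difference of group means for each member probe set in 5 comparisons and the interaction, with 95% intervals from the fit to all 8 arrays; filled points have an adjusted p under 0.05. The 4 cytosolic and specific granule genes lie at 0.87 to 2.10 in NOD.scid against NOD and at -2.39 to -0.94 in BDC2.5/NOD.scid against NOD.scid, and none passes in BDC2.5/NOD.scid against NOD.

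With the transgene present on both sides, BDC2.5/NOD.scid against BDC2.5/NOD, S100a8 alone passed, at 0.94 higher (4.43 ± 0.51 in BDC2.5/NOD.scid and 3.49 ± 0.21 in BDC2.5/NOD, SD, n = 2 each, limma adjusted p = 0.0124), 1 of 8 where 2.99% of all probe sets were higher and 8.35% changed. It did not pass without BDC2.5/NOD replicate 2 (0.79, adjusted p = 0.160) or when BDC2.5/NOD.scid had replicate 2 alone (0.58, adjusted p = 0.0804). S100a9 differed by 0.19, Camp by 0.09 and Ngp by 0.34. Without the 3 high-actin arrays S100a9 (0.32, adjusted p = 0.0370) and Ngp (0.52, adjusted p = 6.92e-05) passed as well. In the fit to all arrays the 4 azurophil probe sets differed by -0.14 to -0.03. Against NOD, BDC2.5/NOD.scid gave 0 of 8 calls, where 7.58% of all probe sets passed, 941 in number and 403 without BDC2.5/NOD.scid replicate 2. S100a8 differed there by -0.29, with a 95% interval of -0.730 to 0.149, and the sign turned when BDC2.5/NOD.scid replicate 2 was left out (0.07). Leaving out replicate 1 gave -0.65 and an adjusted p of 0.0486. Camp differed by only -0.03 (interval -0.231 to 0.167).

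Group means of S100a8, S100a9, Camp and Ngp all ran in the order NOD.scid, NOD, BDC2.5/NOD.scid, BDC2.5/NOD. Between neighbours in that order, NOD.scid and NOD differed for all 4, and BDC2.5/NOD.scid and BDC2.5/NOD differed for S100a8. The difference between BDC2.5/NOD.scid and NOD passed the test for none of them (1 of the 8 member probe sets, Mpo 100414_s_at, had an unadjusted p under 0.05). For Mpo 100414_s_at, Mpo 100415_at, Elane and Prtn3 no neighbouring means differed beyond their spread by the test. The ends of the order, NOD.scid against BDC2.5/NOD, were compared after the values were seen. S100a8 was 10.1-fold higher in NOD.scid (log2 difference 3.33, adjusted p = 7.03e-07), the largest upward difference of all probe sets, and S100a9 4.64-fold, Camp 2.58-fold and Ngp 2.43-fold higher, 4 of 8 where 3.92% were higher and 8.67% changed.

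Values of the cytosolic and specific granule members ran together over the 8 arrays, which share the 4 groups. Pearson r was 0.97 between S100a8 and S100a9, 0.99 between S100a9 and Camp, and 0.97 between S100a8 and Ngp. Elane and Prtn3 correlated at 0.93 with each other, at 0.51 and 0.46 with S100a8, and at 0.60 each with Camp. Mpo 100414_s_at correlated at 0.71 with Camp and 0.51 with S100a8, and Mpo 100415_at at 0.02 and -0.12.

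The 3 arrays of high beta-actin control gave a split within which NOD.scid and NOD could be set side by side, 1 array against 1. S100a8 differed by 2.15 between the high-actin arrays and 2.05 between the low-actin arrays, S100a9 by 1.79 and 1.83, Camp by 1.28 and 1.22, and Ngp by 1.01 and 0.73. For BDC2.5/NOD.scid against NOD.scid, S100a8 was at -2.63 in the high-actin pair and -2.14 in the low-actin pair, S100a9 at -2.09 and -1.95, Camp at -1.30 and -1.26, and Ngp at -1.28 and -0.61. Each of these differences had the same sign in either set. For BDC2.5/NOD against NOD only low-actin arrays could be compared, at -1.40 for S100a8 and -0.45 for S100a9. Array differences, replicate 1 minus replicate 2, correlated at 0.29 between NOD.scid and NOD, which each had high actin in replicate 1. BDC2.5/NOD.scid had it in replicate 2, and its correlations were -0.19 with NOD.scid and -0.32 with NOD. Those with BDC2.5/NOD, which had no high-actin array, were -0.12 to -0.00039. The part of the actin split in these correlations was not tested.

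Further granule and oxidase genes were read from lists, each gene by its probe set of highest mean. Of 7 other azurophil genes, in NOD.scid against NOD, 0 rose and Serpinb1a, an inhibitor of the granule proteases, fell by 0.47 (adjusted p = 0.0389). Ctsg, cathepsin G, a protease of the same granules as Elane, read 2.70 to 2.89 over all arrays. Of 7 other specific granule genes 1 rose, Ltf, the iron-binding lactoferrin, at 4.84 in NOD.scid and 4.31 in NOD (difference 0.53, adjusted p = 0.0195). Mmp8, neutrophil collagenase, read 2.81 to 3.05 throughout. None of the 9 gelatinase granule and surface genes passed in limma (2 had an unadjusted p under 0.05), and of 5 NADPH oxidase genes Cyba, the small subunit of the membrane flavocytochrome, rose by 0.45 (adjusted p = 0.0258). The medians were 0.052, 0.138, 0.070 and 0.152 for the 4 lists, beside 0.028 over all probe sets.

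For the transgene in NOD.scid those lists moved in both directions. Which cells of the bulk tissue the transcripts came from was not measured, for these lists or for Lcn2 below. Ltf fell by 0.47 (adjusted p = 0.0149) and Cd63, a granule membrane protein, fell by 0.47 (adjusted p = 0.0315). In contrast, Hp, haptoglobin, rose by 0.93 (6.56 in BDC2.5/NOD.scid and 5.63 in NOD.scid, adjusted p = 0.000304), Srgn, the granule proteoglycan serglycin, by 0.72, Serpinb1a by 0.47 and Slc11a1, a metal transporter of phagosomes, by 0.38. The counts were 2 higher and 1 lower of 7 azurophil genes, 1 and 1 of 7 specific granule genes, 1 and 0 of 9 gelatinase and surface genes, and 0 of 5 oxidase genes (1 at an unadjusted p under 0.05). Lcn2, neutrophil gelatinase-associated lipocalin, did not pass by its brightest probe set. Its other probe set, 160564_at, chosen after its values were seen, read 4.78 and 4.64 in BDC2.5/NOD.scid, 3.31 and 3.35 in NOD.scid, then 3.13 and 2.97 in BDC2.5/NOD and 2.93 and 2.76 in NOD. Between BDC2.5/NOD.scid and NOD.scid it was 1.38 higher with the transgene (limma adjusted p = 5.14e-06), the opposite direction to Camp and Ngp. Between NOD.scid and NOD, both NOD.scid arrays lay above both NOD arrays, the same direction as Camp and Ngp. In BDC2.5/NOD against NOD, Gusb, a lysosomal glucuronidase, rose by 0.89 and Cyba fell by 0.39, while 0 of 7 specific granule and 0 of 9 gelatinase and surface genes passed (1 and 2 at an unadjusted p under 0.05).

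**Figure D4:**
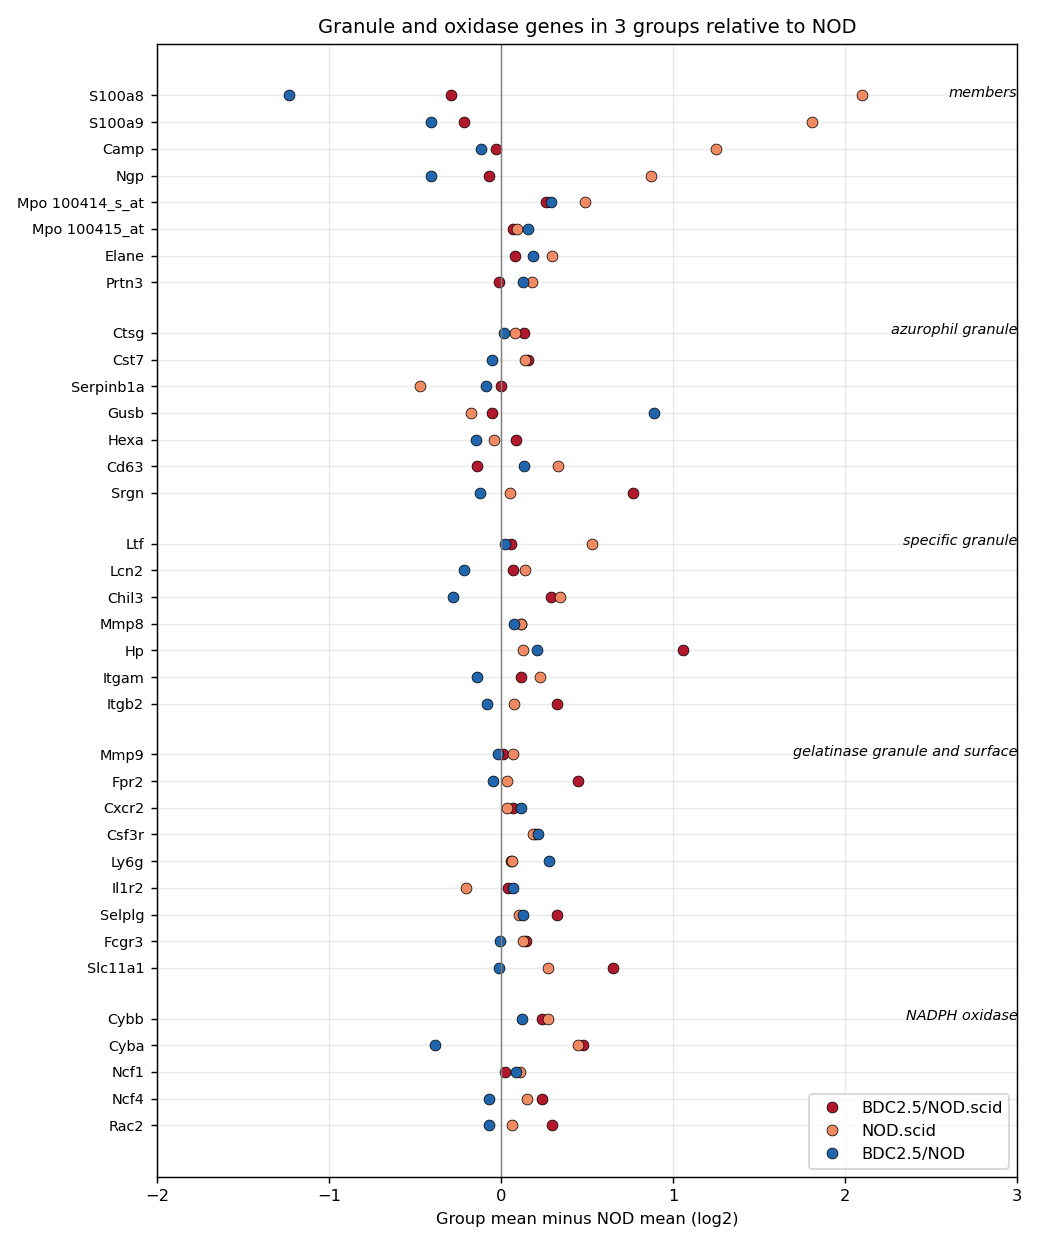
Mean log2 value of each group minus the NOD mean for the members and for 4 lists of granule and oxidase genes, 1 row per probe set; colours mark BDC2.5/NOD.scid, NOD.scid and BDC2.5/NOD. NOD.scid lies far to the right for S100a8, S100a9, Camp and Ngp (0.87 to 2.10), and BDC2.5/NOD.scid lies to the right for Hp and Srgn.

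Factors and signals around these genes were counted too. Of 8 granulocyte transcription factors listed, 7 were measured and Cebpe was not. Of these 7, 0 passed in NOD.scid against NOD (1 at an unadjusted p under 0.05). Cebpb and Cebpd, C/EBP factors of the inflammatory response, rose by 1.26 and 0.85 in BDC2.5/NOD.scid against NOD.scid (limma adjusted p = 5.47e-05 and 0.00481). Of 11 attractants and growth factors of neutrophils, such as Cxcl1, 0 passed in NOD.scid against NOD or in BDC2.5/NOD.scid against NOD.scid, with 0 and 2 at an unadjusted p under 0.05. Of 11 other S100 genes 0 passed in either comparison, with 3 at an unadjusted p under 0.05 in each. Of 7 receptor and signalling genes listed for the S100a8/S100a9 dimer, 5 were measured (Ager, Cd14, Myd88, Bsg and Cd36), while Tlr4 and Ly96 were not. Among these 5, Cd14 rose by 1.13 and Bsg fell by 0.64 in BDC2.5/NOD.scid against NOD.scid. In NOD.scid against NOD 0 of them passed (0 at an unadjusted p under 0.05).

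Markers of another lineage moved with the members. Of 11 erythroid genes measured, 7 were higher and 0 lower in NOD.scid than in NOD, with a median difference of 0.73, among them Hemgn (1.99), Hbb-b2 (1.22), Slc4a1 (1.08) and Hba-a1 (1.03). With the transgene in NOD.scid, 0 were higher and 7 lower, with Hemgn at -1.80, Hbb-b2 at -1.43 and Hba-a1 at -1.16. In BDC2.5/NOD against NOD, 2 of 11 fell, Hba-a1 by 0.64 and Hbb-b2 by 0.62, and in BDC2.5/NOD.scid against NOD 0 passed (2 at an unadjusted p under 0.05). The summed linear level of the list (2 to the power of each value) was 2177 to 2312 in BDC2.5/NOD.scid, 4798 to 5019 in NOD.scid, then 1614 to 1650 in BDC2.5/NOD and 2286 to 2560 in NOD. This sum mostly follows Hba-a1, which read 10.35 to 12.07 over the arrays, with Hbb-b2 next at 6.73 to 8.71. The list's part in the members' result was not tested. Macrophage genes went otherwise, with 0 of 12 past the threshold in NOD.scid against NOD (3 at an unadjusted p under 0.05) and 7 higher in BDC2.5/NOD.scid against NOD.scid, among them Ctss (2.61) and Lyz2 (1.95). Their summed level was 767 to 833 in BDC2.5/NOD.scid, 451 to 484 in NOD.scid, then 459 to 464 in BDC2.5/NOD and 406 to 456 in NOD, and their part was not tested either.

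The probe sets whose values followed each member most closely over the 8 arrays were drawn from 409 candidates that span at least 1 on the log2 scale. For S100a8 these were Mzt2 (Pearson r = 0.981), a partner of the gamma-tubulin complex, and the globins Hba-a1 (0.966) and Hbb-b2 (0.961). S100a9 was followed by Car2 (0.994), a carbonic anhydrase abundant in red cells, Ctse (0.985), an aspartic protease, and Hemgn (0.970), a nuclear protein of erythroid precursors. For Camp the order was Ctse (0.996), Car2 (0.990) and Hemgn (0.985). Ngp was matched by Pip4k2c (0.987), a lipid kinase, Hbb-b2 (0.967) and Mzt2 (0.958). The arrays of a group share their condition, so the 8 points are not independent.

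**Figure D5:**
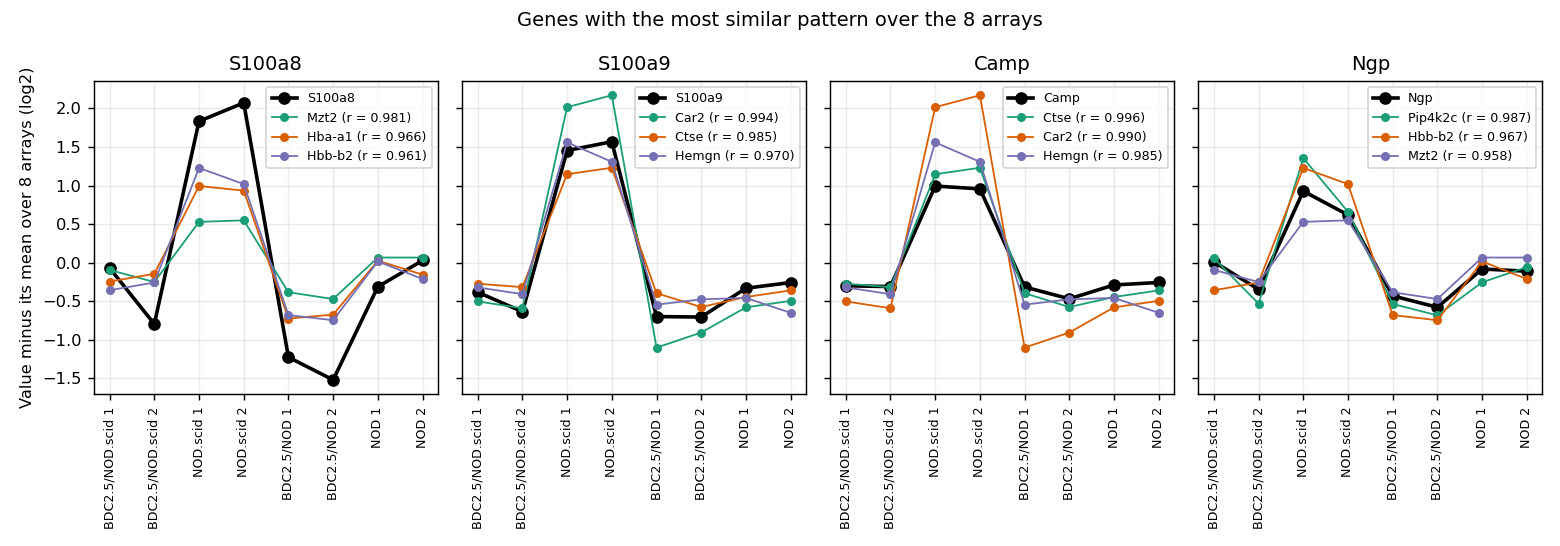
Log2 value minus its mean over the 8 arrays for S100a8, S100a9, Camp and Ngp and the 3 probe sets most like each, array by array; lines only join the points of a gene. The NOD.scid arrays are the highest in every trace, and the correlations run from 0.958 to 0.996. Both features follow from picking the traces by their likeness to members that are highest in NOD.scid.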

How the data were processed

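Each array's deposited values were used as given; the authors' values are on a log scale taken as log2, since the highest was 13.78, while the sources used here give neither normalization nor background correction. Of 12488 probe sets, 66 array controls were left out and 12422 tested; 10833 had 1 symbol, 396 several and 1193 none in the platform annotation. A model of 4 group means used all 8 arrays, in limma 3.58.1 (R 4.3.3; residual df 4, prior df 8.07, variance trend), with two-sided p-values adjusted by Benjamini-Hochberg over all 12422 and a threshold of 0.05. The fit was tested on simulated data. Replicate 1 is the array whose title ends in 1. The members and 19 gene lists (143 of 179 genes measured) were chosen with earlier results of these data known. Members were all named; for lists, up to 4 genes past the threshold with the smallest p. Alternatives covered quantile normalization, median centring, a dim-probe filter, the variance prior, the arrays fitted, a replicate block, array weights, an actin term, the threshold, and each array left out. A comparison of NOD.scid with BDC2.5/NOD and the fits without the BDC2.5/NOD arrays or the 3 high-actin arrays were chosen after seeing the data. The number of arrays limits the precision. pandas 2.3.3 and matplotlib 3.10.9 served for tables and plots.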

Additional observations from a re-analysis of the deposited data

Results flagged for a closer look

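The difference made by the BDC2.5 transgene was not the same in NOD.scid and in NOD for 3 member genes, by the interaction term of the limma fit. S100a9 gave -1.61 (a transgene difference of -2.02 in NOD.scid and -0.41 in NOD), Camp -1.16 (-1.28 in NOD.scid and -0.12 in NOD) and S100a8 -1.16 (-2.39 in NOD.scid and -1.23 in NOD), all on the log2 scale, with adjusted p of 5.84e-05, 0.000216 and 0.0388. S100a9 and Camp passed in all 17 alternatives, but S100a8 in only 9 of 17, and in 2 of the 8 fits with 1 array left out (adjusted p up to 0.201). For S100a9 and Camp both NOD.scid arrays lay apart from the other 6, by 1.71 and 1.22. Those 6 arrays read 3.92 to 4.37 for S100a9 and 5.33 to 5.54 for Camp, and whether a floor of the signal limited the fall in NOD was not tested. With 2 arrays per group no array could be judged an outlier.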

How the results depend on the processing

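Most results held their direction and side of the threshold: of 1010 alternative values for single members, 959 did, 28 lost a call, 9 gained one and 14 changed sign. In NOD.scid against NOD the member count was 3 to 5 with 1 array left out, against 5 in all 8 arrays, and 3 without NOD replicate 2. In BDC2.5/NOD against NOD it was 2, but 1 at an adjusted p of 0.01, 1 with the replicate block, 3 with the compared groups alone, 3 without the 3 high-actin arrays, 4 with array weights (1 higher and 3 lower) and 0 to 2 with 1 array left out. It was 1 in BDC2.5/NOD.scid against BDC2.5/NOD, but 0 at an adjusted p of 0.01, 3 without the 3 high-actin arrays (a fit with 1 residual degree of freedom) and 0 to 1 with 1 array left out. For BDC2.5/NOD.scid against NOD it was 0 and, with 1 array left out, 0 to 1. Replicate 1 minus replicate 2 correlated between groups at -0.32 to 0.29, which cannot show if title numbers pair arrays. With the replicate block, S100a9 in BDC2.5/NOD against NOD had an adjusted p of 0.0647 and S100a8 in the interaction 0.0657, which took that count to 2, and no other member call changed. With 1 array left out, Mpo 100415_at ranged from -0.051 to 0.24 in NOD.scid against NOD, from -0.172 to 0.119 in BDC2.5/NOD.scid against NOD.scid and from -0.208 to 0.083 in NOD.scid against BDC2.5/NOD. Elane ranged from -0.2405 to 0.0255 in BDC2.5/NOD.scid against BDC2.5/NOD and from -0.054 to 0.212 in BDC2.5/NOD.scid against NOD, where S100a8 ranged from -0.654 to 0.073, Ngp from -0.2505 to 0.1085 and Prtn3 from -0.0885 to 0.0675. Without the high-actin arrays, Mpo 100415_at came to 0.083 in NOD.scid against BDC2.5/NOD, Elane to 0.0255 in BDC2.5/NOD.scid against BDC2.5/NOD and Ngp to 0.123 in BDC2.5/NOD.scid against NOD. The cause was not tested. Over all probe sets, the actin term raised the calls to 739, in place of 292, in NOD.scid against NOD, where leaving out 1 array gave 71 to 352, the compared groups alone 143, the replicate block 195 and an adjusted p of 0.01 gave 109. The actin term gave 1315 in place of 795 in BDC2.5/NOD.scid against NOD.scid (445 to 746 with 1 array left out, 455 with the compared groups alone, 432 at 0.01) and 1507 in place of 990 in BDC2.5/NOD against NOD (in the same order 279 to 1139, 1521 and 419, and 1568 with array weights). For the interaction it gave 1042 in place of 586 (195 to 491; 229 at 0.01), for BDC2.5/NOD.scid against NOD 1707 in place of 941 (403 to 1064, 575 and 377), and for NOD.scid against BDC2.5/NOD 1701 in place of 1077 (419 to 1138; 544 at 0.01). The calls in BDC2.5/NOD.scid against BDC2.5/NOD were 1037, with 329 to 1149 and 484. Leaving out the 3 high-actin arrays raised the calls by more than the actin term in all but the last of these: 1489 in NOD.scid against NOD, 1418 in BDC2.5/NOD.scid against NOD.scid, 2179 in BDC2.5/NOD against NOD, 2138 in BDC2.5/NOD.scid against BDC2.5/NOD, 1621 in the interaction and 2817 in NOD.scid against BDC2.5/NOD, with 1441 in BDC2.5/NOD.scid against NOD. Median centring moved the share of higher calls in BDC2.5/NOD against NOD to 38.9% (408 higher and 640 lower) from 49.1% (486 and 504). With 1 array left out that share was 24.2% to 46.4% in NOD.scid against NOD (31.5% in all arrays), 31.7% to 52.6% in BDC2.5/NOD.scid against NOD.scid (37.1%), 31.1% to 47.7% in BDC2.5/NOD.scid against BDC2.5/NOD (35.9%), 26.8% to 51.9% in BDC2.5/NOD.scid against NOD (33.0%) and 38.5% to 57.9% in the interaction (47.1%). The sources used here give no measure of the background signal, so its limit on dim probe sets is not known.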

Other observations

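The remaining lists were counted in the same limma fit. In NOD.scid against NOD, 0 of 9 T cell, 0 of 7 B cell, 0 of 7 mast cell and basophil, 0 of 6 progenitor, 0 of 4 platelet, 0 of 9 proliferation, 0 of 6 islet and 0 of 5 acinar genes passed, with 1, 0, 1, 1, 1, 5, 2 and 0 of them at an unadjusted p under 0.05 in that order. Of 5 eosinophil genes Prg2, the granule major basic protein, rose by 0.66. In BDC2.5/NOD.scid against NOD.scid, Prg2 fell by 0.56, 7 of 9 proliferation genes and 4 of 6 islet genes were lower, and 0 of 9 T cell, 0 of 7 B cell, 0 of 7 mast cell and basophil, 0 of 6 progenitor, 0 of 4 platelet and 0 of 5 acinar genes passed, with 2, 0, 0, 1, 0 and 0 at an unadjusted p under 0.05. Prg2 thus moved in the same directions as Camp and Ngp in both comparisons, which share the NOD.scid arrays. The other 4 eosinophil genes passed in neither comparison.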
